A study of Homo sapiens with 4 samples.

Results

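The embryonal carcinoma line GCT27 and the yolk sac tumour line GCT44 were compared with each other, as a line that keeps the genes of pluripotent cells and a line of an extraembryonic endoderm tumour. They are 2 of the 4 human germ cell tumour lines of the study, chosen by their labels. Each line was measured on 1 single-colour oligonucleotide array, so no difference carries a replicate error and no test was possible. Both were grown in DMEM with 10% fetal bovine serum, so they share the medium, and both are unmodified, established lines that the labels describe as human testicular germ cell tumour. The other lines, used here only to show which member of the pair stood apart, were the seminoma line TCam-2, grown in RPMI-1640 with the same serum, and the teratoma-labelled line NT2D1, grown in DMEM. A line is 1 tumour's descendants in culture, and what holds for GCT27 or GCT44 need not hold for its tumour type.

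Embryonal carcinoma cells are the malignant counterpart of the pluripotent cells of the early embryo. They are held in that state by a small circuit of transcription factors, with NANOG, SOX2 and POU5F1 at its core, and by NODAL and FGF signals. Yolk sac tumour follows the path of the extraembryonic endoderm. GATA and forkhead (FOXA) factors drive that lineage, which secretes apolipoproteins, clotting factors and other plasma proteins before the liver does.

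Of 19775 genes with a probe set of their own, 13947 reached 76.4 intensity units, the median of all values, on the array of GCT27, of GCT44 or of both, and were compared. Values below 76.4 units were set to it, since dim probe sets carry no reliable order, and a fold against such a value is a lower bound, written "at least". A gene was called higher in a line when it was 4-fold or more above the other, a log2 difference of 2. In this way 791 genes were higher in GCT27, 5.67% of those compared, and 620 were higher in GCT44, 4.45% of those compared. Both shares are the background for every count of list members below. Of these, 469 of the 791 lay below the floor in GCT44 and 244 of the 620 lay below it in GCT27. The median log2 difference (GCT27 minus GCT44) over all genes compared was 0.03, and 71.1% of them lay within 2-fold. At the edge of the call, ISG20 (355 units in GCT27, 88.7 in GCT44, a log2 difference of 2.00036) was just inside and FAM222B (3514 and 879 units, 1.99918) just outside. On the other side TIMP3 (97.5 and 390 units, -2.00193) was just inside and SLC7A2 (624 and 2497 units, -1.99938) just outside.

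**Figure D1:**
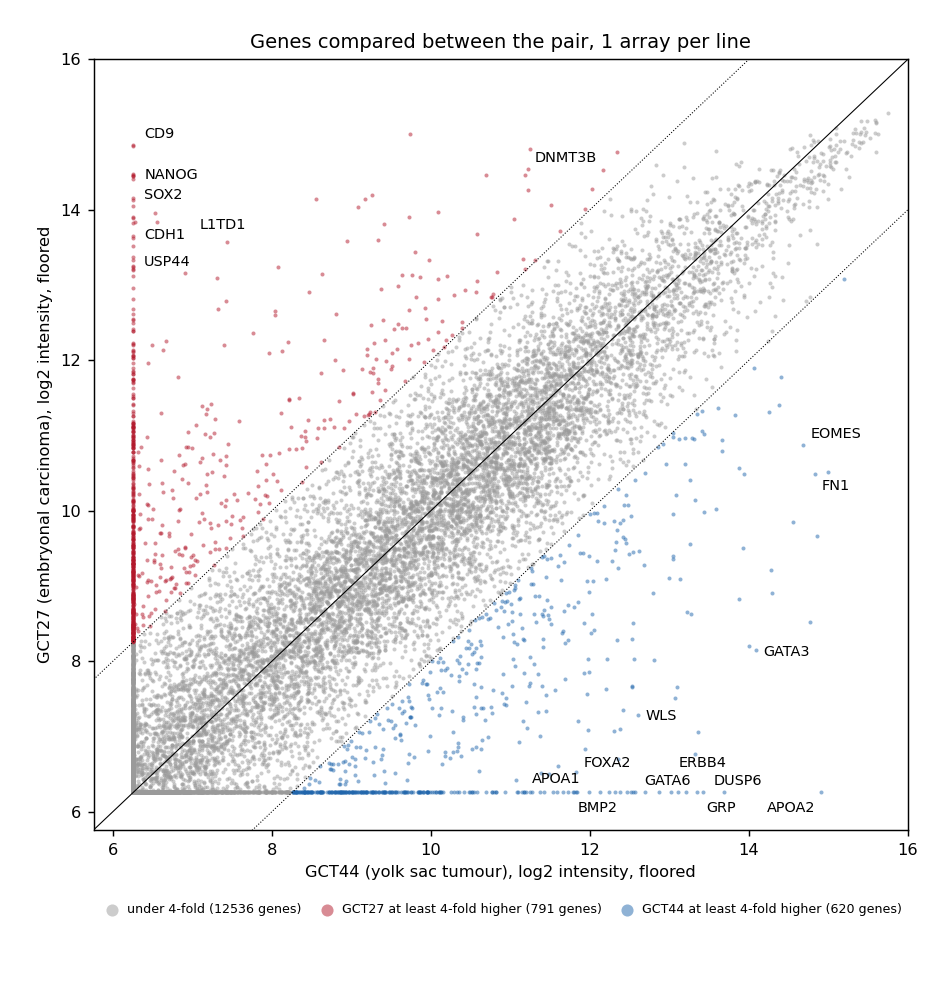
Log2 intensity of 13947 genes in GCT44 (horizontal axis) and GCT27 (vertical axis), floored at 76.4 units, 1 point per gene and 1 array per line. The solid line marks equal values and the dotted lines 4-fold; 791 genes lie above the upper dotted line and 620 below the lower one, many of them on the floor at the left and lower edges.

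The arrays were alike in median signal and differed in other measures. Their median intensities were 79.3 for GCT27 and 75.4 for GCT44, against 73.6 and 77.4 on the other arrays. The GCT44 array had an ACTB 3'/5' signal ratio of 4.21 against 2.97 for GCT27, while its GAPDH ratio was 1.04 against 0.898. Its spiked-in hybridization controls lay 0.29 above the mean of the 4 arrays on the log2 scale, and those of GCT27 lay 0.26 below it. When the arrays were scaled to these controls instead, the all-gene median became 0.51, with 1242 genes higher in GCT27 and 405 higher in GCT44. The share of calls in the direction of GCT27 was 56.1% as deposited and 75.4% under that scaling. The part of these array differences in the results was not tested. Of 11 housekeeping genes compared, 0 were called, and their median log2 difference was -0.33, or 0.22 when scaled to the controls, which is below 0.51.

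The labels were checked against marker genes. For GCT27, NANOG, SOX2 and the de novo methyltransferase DNMT3B were all called higher than in GCT44, as described next. POU5F1 had no probe set assigned to it alone and was not analysed here. For GCT44, the apolipoproteins APOA1 and APOA2 and the endoderm factors GATA6 and FOXA2 were called higher. APOA1 was short of the call at -0.94 without probe sets that match several transcripts. AFP, which these tumours often shed into blood, was only 4.36-fold higher (372 against 85.4 units) and was short of the call at -1.57 when scaled to the spiked-in controls. The proteoglycan GPC3, another tissue marker, was not higher at all (740 against 1019 units). GATA4 had 104 units in GCT44 and 25.6 in GCT27 with the probe set used here, and 400 against 6.68 with another. SOX17, an endoderm factor, was below the floor in both lines (42.7 and 44.2 units). GCT44 thus carried some of the defining markers at high signal, some at low signal and others not above the floor.

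The sequences before 4 transcription starts illustrate short motifs that match factors of these lineages. A window can hold motifs of either lineage, so a match does not set the lines apart. NANOG was chosen as the widest transcription factor on the GCT27 side on floored values. APOA2, CPN1 and FGG were chosen as secreted proteins called higher in GCT44. All were chosen after their values were seen. Each is the 250 bases before the start in the strand of the gene, from RefSeq (GRCh38.p14), with the motif in capitals. NANOG lies at chr12:7789152-7789401 (+), APOA2 at chr1:161223629-161223878 (-), CPN1 at chr10:100081870-100082119 (-) and FGG at chr4:154612657-154612906 (-).

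NANOG: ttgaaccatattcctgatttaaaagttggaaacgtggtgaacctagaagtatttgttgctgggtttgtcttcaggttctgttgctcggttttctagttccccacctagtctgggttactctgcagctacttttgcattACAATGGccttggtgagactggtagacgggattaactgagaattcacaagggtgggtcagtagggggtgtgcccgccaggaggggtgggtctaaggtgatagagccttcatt

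APOA2: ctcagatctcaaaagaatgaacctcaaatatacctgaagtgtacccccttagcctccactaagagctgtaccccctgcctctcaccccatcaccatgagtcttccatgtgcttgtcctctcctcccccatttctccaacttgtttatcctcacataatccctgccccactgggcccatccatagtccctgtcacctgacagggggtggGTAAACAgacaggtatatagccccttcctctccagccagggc

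CPN1: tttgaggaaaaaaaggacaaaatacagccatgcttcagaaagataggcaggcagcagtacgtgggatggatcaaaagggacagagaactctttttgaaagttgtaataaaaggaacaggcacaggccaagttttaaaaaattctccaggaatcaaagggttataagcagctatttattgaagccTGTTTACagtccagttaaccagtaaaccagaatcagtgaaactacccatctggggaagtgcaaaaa

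FGG: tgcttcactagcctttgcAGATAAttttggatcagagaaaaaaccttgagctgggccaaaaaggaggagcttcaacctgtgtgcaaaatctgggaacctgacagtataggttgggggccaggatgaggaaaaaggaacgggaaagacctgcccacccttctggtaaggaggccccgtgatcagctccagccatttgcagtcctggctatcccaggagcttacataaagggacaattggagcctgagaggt

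The capitals mark the SOX-type motif ACAATGG in NANOG, 112 bases before the start, the forkhead motif TGTTTAC in APOA2 (on the opposite strand, 42 bases before) and in CPN1 (66 bases before), and the GATA motif AGATAA in FGG (232 bases before). Searched on both strands of 35116 RefSeq promoter windows of that length, ACAATGG was in 2.62%, TGTTTAC in 2.98% and AGATAA in 9.17%. Of the 50 widest genes on each side, 30 on the GCT27 side had 52 windows and 37 on the GCT44 side had 62. ACAATGG was in 4 of the 52 and 3 of the 62, TGTTTAC in 0 and 3, and AGATAA in 1 and 5. The POU octamer ATGCAAAT (1.63% of all windows) was in 2 and 0, and the HNF4 repeat CAAAGTCCA (0.325%) in 0 and 0. TATAAA (10.7%) was in 6 and 7, and CCAAT (32.0%) in 15 and 24. No motif holds another. These are matches of letters and not sites of binding.

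Among pluripotency factors, NANOG had 22428 units in GCT27 and 2.29 in GCT44, at least 293-fold higher. A separate NANOG probe set gave 6103 against 4.68 units. NANOG was high in every line but GCT44, with 22390 units in TCam-2 and 13322 in NT2D1. SOX2, the partner of POU5F1 on DNA, had 18309 units in GCT27 and 6.41 in GCT44, at least 240-fold higher, with 20575 in NT2D1 and 391 in TCam-2. SOX2 was thus high in GCT27 and NT2D1 and low or below the floor in the other lines. PRDM14, a repressor of differentiation genes, had 2014 against 12.5 units, at least 26.4-fold higher.

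Of 20 pluripotency factors listed, 17 were compared, 8 were higher in GCT27 and 1 in GCT44, with a median log2 difference of 1.38 against 0.03 over all genes. The list median was 0.65 when each gene took the median of its probe sets and 0.78 with the floor at the 70th percentile of all values (252 units), called the stricter floor from here on. The Krüppel-like factors KLF5 (630 against 19.8 units, at least 8.25-fold) and KLF4 (1803 against 298 units, 6.06-fold) were higher in GCT27, and higher still in TCam-2 at 4124 and 10861 units. UTF1 (at least 6.83-fold), TFCP2L1 (at least 4.72-fold) and MYCN (4.07-fold) were the other members called, but MYCN had a log2 difference of 0.20 without probe sets that match several transcripts. At the stricter floor UTF1 (1.05), TFCP2L1 (0.52) and KLF5 (1.32) were short of the call. The exception was OTX2, a homeobox factor of the primed epiblast and of anterior visceral endoderm, with 9762 units in GCT44 and 750 in GCT27, a log2 difference of -3.70. NT2D1 (9043 units) lay beside GCT44 for this gene. Not called were SALL4 (3356 in GCT27, 2414 in GCT44), SALL1 (2580 and 4779) and ZIC2 (10584 and 8268).

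A second list held genes that mark pluripotent cells without being core factors. Of 29 listed, 26 were compared, 14 were higher in GCT27 and 1 in GCT44, with a median of 2.50. DPPA4, a chromatin protein of pluripotent cells, had 21768 against 12.5 units (at least 285-fold). The stem cell RNA-binding gene L1TD1 had 14635 against 77.5 units (189-fold), and USP44, a deubiquitinase, 10648 against 2.80 (at least 139-fold). The neuropeptide gene GAL had 15967 against 92.3 units (173-fold), and DPPA2, the partner of DPPA4, 1761 against 8.28 (at least 23.0-fold). DNMT3B had 23760 against 2377 units (10.0-fold), JARID2, a Polycomb partner, 15277 against 845 (18.1-fold), and the Polycomb subunit PHC1 22638 against 1649 (13.7-fold). The JARID2 difference was 1.59 without probe sets that match several transcripts. CRABP2, a retinoic acid carrier, was the member higher in GCT44 (1776 against 439 units, 4.04-fold), at -1.47 with spiked-in scaling.

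The RNA-binding proteins that block let-7 microRNA maturation were not part of this contrast. LIN28A had 21142 units in GCT27 and 17340 in GCT44, and LIN28B 5621 and 5245. TRIM71, a let-7 target, had 21908 and 10084. A stem cell signature was thus divided within GCT44, with LIN28A, LIN28B, SALL4 and ZIC2 within 2-fold of GCT27, and NANOG, SOX2, DPPA4 and USP44 below the floor.

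**Figure D2:**
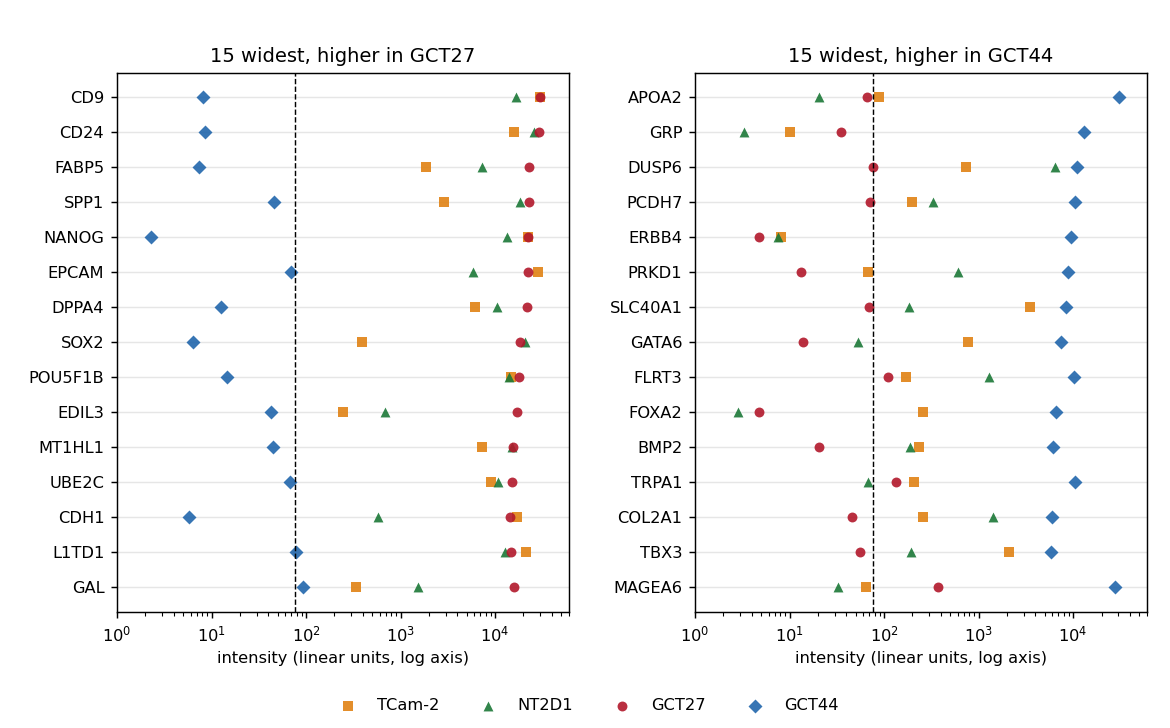
Intensity in linear units on a log axis for the 15 genes with the widest difference each way, with 1 marker per line and 1 array per marker; the dashed line is the floor of 76.4 units. GCT44 lies alone at the left for CD9, CD24 and NANOG, while for EDIL3 and GAL GCT27 lies to the right of the other 3 lines; on the right panel DUSP6 is high in NT2D1 as well as in GCT44.

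Surface and adhesion genes held several of the widest differences. CD9, a tetraspanin, had 29639 units in GCT27 and 8.06 in GCT44 (at least 388-fold), the widest difference on this side on floored values. CD24, a small surface glycoprotein, had 29376 against 8.61 units (at least 384-fold). Its 5 other probe sets were also higher in GCT27, but they were bright through that line, so this is no independent support. EPCAM, an epithelial adhesion molecule of pluripotent cells, had 22390 against 69.2 units (at least 293-fold). CDH1, which encodes E-cadherin, had 14524 against 5.77 units (at least 190-fold). CD9, EPCAM and CDH1 rest on 1 informative probe set each. With the median over its probe sets, CD9 was below the floor in both lines and was not compared.

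Of 29 epithelial adhesion and junction genes, 22 were compared, 11 were higher in GCT27 and 0 in GCT44, with a median of 2.03. ESRP1, a splicing regulator of epithelial cells, had 3598 against 7.39 units (at least 47.1-fold), and the claudin CLDN7 had 1963 against 4.05 (at least 25.7-fold). SPINT2, an inhibitor of membrane proteases, was at least 58.8-fold higher, CLDN10 at least 27.0-fold, MARVELD2 at least 18.2-fold, GRHL2, a transcription factor of epithelia, at least 7.42-fold, and CLDN6 6.28-fold. TCam-2 had high CDH1, CLDN7 and GRHL2 (17193, 1830 and 2128 units), while NT2D1 had 580, 3.21 and 38.9 units. These 3 genes were therefore high in GCT27 and TCam-2 and low in GCT44 and NT2D1. Not called were desmosome, tight junction and keratin genes with values in both lines. DSP had 7334 units in GCT27 and 15714 in GCT44, OCLN 3783 and 6166, KRT8 2123 and 2600, KRT19 3212 and 8870, and KRT18 17953 and 6724. GRHL2 was 1.17 at the stricter floor.

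Of 18 genes of the mesenchymal state compared, 4 were higher in GCT27 (5.67% of all genes) and 3 in GCT44 (4.45% of all genes), with a median of -0.48 that was 0.069 with spiked-in scaling. CDH2, which encodes N-cadherin, had 21387 units in GCT44 against 2711 in GCT27 (7.89-fold). ZEB1, a repressor of CDH1, had 1584 against 114 units (13.9-fold), and TWIST1 3984 against 538 (7.41-fold). On the GCT27 side were the gelatinase MMP2 (2518 against 97.3 units, 25.9-fold), the matrix protein TNC (1760 against 79.5, 22.1-fold), the hyaluronan receptor CD44 (1385 against 54.5, at least 18.1-fold) and S100A4 (991 against 45.1, a log2 difference of at least 3.70, or 1.97 at the stricter floor). With the median over probe sets the TNC difference was 0.76, and MMP2 was below the floor in both lines and was not compared. VIM, the mesenchymal filament gene, had 17191 and 24249 units and was not called.

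On the GCT44 side, transcription factors of endoderm and mesendoderm stood out. GATA6, which specifies extraembryonic endoderm, had 7451 units in GCT44 and 13.7 in GCT27 (at least 97.5-fold). FOXA2, a pioneer factor, had 6631 against 4.77 units (at least 86.8-fold). FOXA3 had 2506 against 250 units (10.0-fold) and PRDM1, a transcriptional repressor, 1550 against 93.1 (16.6-fold). Of 22 endoderm factors, 13 were compared, 6 were higher in GCT44 and 1 in GCT27, with a median of -1.46 (-0.69 with spiked-in scaling, -2.48 with probe sets chosen by linear mean). HNF4G (at least 6.33-fold) and NR2F1 (at least 8.72-fold) were the remaining 2 on the GCT44 side, both short of the call at the stricter floor (-0.94 and -1.40). The factor higher in GCT27 was SOX7, itself an endoderm gene, with 926 against 5.32 units (at least 12.1-fold), or 1.88 at the stricter floor. HNF4A had no probe set assigned to it alone and was not analysed here.

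Among the 13 of 15 mesendoderm factors compared, 7 were higher in GCT44 and 0 in GCT27, with a median of -2.30. That median was -0.52 without probe sets that match several transcripts and -3.81 at the stricter floor. EOMES, a T-box factor of the primitive streak and visceral endoderm, had 26237 units in GCT44 and 1876 in GCT27 (a log2 difference of -3.81), with 130 in TCam-2 and 238 in NT2D1. LHX1, a homeobox factor of visceral endoderm and early mesoderm, had 4470 against 56.0 units (at least 58.5-fold) and was below the floor in the other lines too. GATA3 had 17360 against 283 units (61.4-fold) and TBX3 5858 against 55.7 (at least 76.6-fold). TCam-2 also had 5874 units for GATA3 and 2076 for TBX3. Of the TBX3 probe sets only the 3 that were bright in GCT44 were past 4-fold, and the median over all 7 gave -0.32. HAND1 (at least 5.22-fold), MSX1 (1220 units in GCT44 and below the floor in GCT27) and MSX2 (4.92-fold) made up the rest, with MSX1 at -0.52 without probe sets that match several transcripts, HAND1 at -0.66 at the stricter floor and MSX2 at -1.75 with spiked-in scaling. The streak genes TBXT (233 units in GCT27, 23.7 in GCT44) and MIXL1 (45.6 and 93.1) were not called.

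The plasma proteins of yolk sac gave the widest single difference of the pair on floored values. This ranks lower bounds, with APOA2 at -8.65 and CD9 at 8.60. APOA2, a component of high-density lipoprotein, had 30689 units in GCT44 and 66.6 in GCT27 (at least 402-fold), and another probe set gave 38064 against 8.37. APOA1, its main partner in that particle, had 3067 against 35.8 units (at least 40.1-fold), with a like value in a further probe set (3049 against 19.4). One more APOA1 probe set was dim, with 147 against 54.0 units and a difference of -0.94. Without probe sets that match several transcripts only this dim one was left, and APOA1 lost the call. In all, 21 of 24 plasma proteins were compared, 7 were higher in GCT44 and 0 in GCT27, with a median of -1.12 (-1.87 with the median over probe sets). APOM had 1725 against 168 units (10.2-fold), the carboxypeptidase CPN1 688 against 44.1 (at least 9.01-fold), TTR, which carries thyroid hormone and retinol-binding protein, 478 against 59.8 (at least 6.26-fold), and APOC3 316 against 42.8 (at least 4.14-fold). APOC3 was -1.07 with the median over its probe sets and -0.33 at the stricter floor, where TTR (-0.92), CPN1 (-1.45) and AFP (-0.56) also lost the call. ALB (118 units in GCT44), SERPINA1 (163) and TF (115) were near the floor, and APOE (5301 against 1655) and APOC1 (8233 against 2981) were present in both lines and not called.

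Clotting and fibrinolysis proteins are also secreted by yolk sac. Of 23 listed, 14 were compared, 4 were higher in GCT44 and 1 in GCT27, with a median of -0.80 (-0.26 with the median over probe sets, -1.45 without those that match several transcripts). FGG, the fibrinogen gamma chain, had 1771 units in GCT44 against 6.81 (at least 23.2-fold), and factor X, F10, 1099 against 68.3 (at least 14.4-fold). FGB, the beta chain, had 159 against 69.7 units and was not called, and FGA, the alpha chain, was below the floor in both lines. F7 (at least 6.14-fold) and PROS1 (4.48-fold) were the others, with F7 at -0.90 at the stricter floor and PROS1 at -1.61 with spiked-in scaling. PLAT, a plasminogen activator, was higher in GCT27 (981 against 37.9 units, at least 12.8-fold), or 1.96 at the stricter floor.

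**Figure D3:**
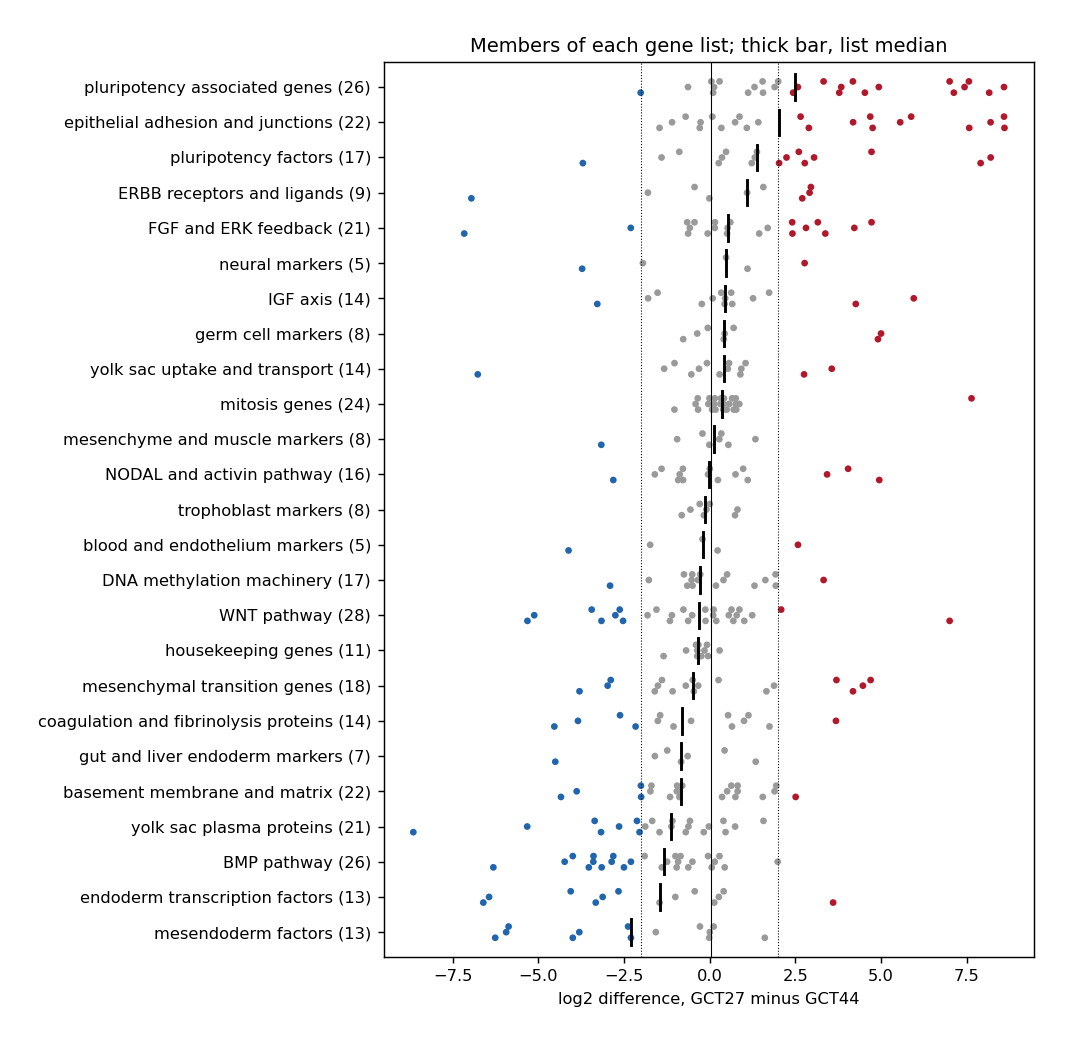
Log2 difference (GCT27 minus GCT44) of each compared member of the 25 gene lists, 1 point per gene, with the number of members in brackets. Red points are 4-fold or more higher in GCT27 and blue points in GCT44, the thick bar is the list median, and the solid line the median of all genes at 0.03; list medians run from -2.30 for mesendoderm factors (-0.52 without probe sets that match several transcripts) to 2.50 for pluripotency associated genes.

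Markers of other cell types were low in both lines for the most part. Of the trophoblast list 0 of 8 compared members were called, and CGA, TFAP2A and GCM1 were below the floor. Its summed intensity over 15 probe sets was 1329 in GCT27 and 1175 in GCT44. GATA3, TBX3, HAND1 and EOMES were listed with the mesendoderm factors and are not in this count. The gut and liver list summed to 1714 and 4391 units, with CDX2, CDH17 and PDX1 below the floor and VIL1 as the only called member (1738 units in GCT44 against 25.4, at least 22.7-fold). Neural markers summed to 17577 and 14437 units, mainly from TUBB3 (15223 and 10947), with PAX6 and SOX1 below the floor, NES higher in GCT27 (6.81-fold) and FABP7 higher in GCT44 (13.2-fold). Mesenchyme and muscle markers summed to 7641 and 9817 units, with PDGFRA higher in GCT44 (8.97-fold), a difference that was -0.79 with the median over its probe sets. Blood and endothelium markers summed to 1700 and 3529 units with PTPRC below the floor. The receptor KDR was higher in GCT27 (5.95-fold), and the T cell receptor component CD3D higher in GCT44 (2803 against 161 units), without CD3E (88.4 and 51.4). Germ cell markers summed to 6911 and 2508 units, with TFAP2C (at least 32.0-fold) and PDPN (2294 against 9.58 units) higher in GCT27 and DDX4 and DAZL below the floor in both. The part of these markers in the other results was not tested.

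Among signalling genes, the BMP pathway lay on the GCT44 side. BMPs are secreted ligands that act through SMAD1, SMAD5 and SMAD9 and switch on the ID and MSX genes. Of 28 genes 26 were compared, 11 were higher in GCT44 and 0 in GCT27, with a median of -1.32 (-0.77 when scaled to the spiked-in controls, where all genes had 0.51). The ligand BMP2 had 6081 units in GCT44 and 20.6 in GCT27 (at least 79.6-fold), BMP5 555 against 74.4 (at least 7.27-fold) and BMP4 1344 against 237 (5.67-fold). The receptor BMPR1B (803 against 54.1 units, at least 10.5-fold) and the mediator SMAD9 (1285 against 111, 11.5-fold) were higher with them. Of the target genes, ID2 had 6561 against 623 units (10.5-fold) and the feedback inhibitor SMAD6 1493 against 168 (8.90-fold), while ID1 (20052 and 5372), ID3 (9217 and 4600) and ID4 (542 and 733) were not called. Nor were the mediators SMAD1 (1404 and 989) and SMAD5 (6110 and 3221). The extracellular regulators BMPER (at least 18.8-fold) and FST (7.04-fold) were also higher in GCT44. BMP4 (-1.95) was short of the call with spiked-in scaling, and BMP5 (-1.14) and BMPR1B (-1.67) at the stricter floor. The antagonist NOG was not called (302 units in GCT27, 59.8 in GCT44). ID2 was high in TCam-2 and NT2D1 as well (12475 and 7488 units), so for that gene GCT27 was the line that stood apart.

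The NODAL pathway, which uses SMAD2 and SMAD3, had called members on both sides. Of 16 genes compared 3 were higher in GCT27 and 1 in GCT44, against 5.67% and 4.45% of all genes, with a median of -0.02 (-0.78 at the stricter floor). GDF3, a NODAL-like ligand of pluripotent cells, had 16726 against 543 units (30.8-fold). NODAL had 864 against 80.5 units (10.7-fold) and its target and antagonist LEFTY1 1255 against 25.2 (at least 16.4-fold). For NODAL and LEFTY1 the values in NT2D1 (128 and 115) and TCam-2 (81.1 and 48.3) lay near that of GCT44. The NODAL difference was 1.04 with the median over its probe sets and 1.78 at the stricter floor. The activin subunit INHBA (150 units in GCT27, 40.7 in GCT44) was not called, and INHBB was below the floor. The member higher in GCT44 was FST, an activin and BMP antagonist counted above. The receptor ACVR1B, SMAD2 and SMAD4 had 1587, 1939 and 1757 units in GCT27 and 2915, 3670 and 5334 in GCT44, none called.

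FGF signals reach the nucleus through ERK, which induces its own inhibitors, and the pair was divided here as well. Of 21 genes compared 7 were higher in GCT27 and 2 in GCT44, with a median of 0.52. The ligands FGF2 (1423 against 67.4 units, at least 18.6-fold) and FGF4 (791 against 73.1, at least 10.4-fold) and the receptors FGFR2 (2015 against 38.9, at least 26.4-fold) and FGFR1 (2881 against 324, 8.90-fold) were higher in GCT27. The FGFR2 difference turned to -1.19 without probe sets that match several transcripts, and that of FGFR1 was 0.61 with the median over its probe sets. The ERK target factors ETV4 (a log2 difference of 2.81) and ETV5 (5.32-fold) and the ligand carrier FGFBP3 (5.30-fold) were on the same side. ETV5 was 1.51 with the median over its probe sets, and ETV4 (1.19), FGFBP3 (1.41) and FGF4 (1.65) were short of the call at the stricter floor. DUSP6, a phosphatase that switches ERK off, went the other way, with 10955 units in GCT44 and 75.5 in GCT27 (at least 143-fold). Its other 2 probe sets gave 7054 against 6.47 and 4076 against 3.46 units. NT2D1 had 6375 and TCam-2 744, so a DUSP6 signal below the floor was seen in GCT27 alone. DUSP4 (1162 against 235 units, 4.94-fold) was higher with DUSP6 but short of the call (-1.75) with spiked-in scaling, while SPRY1, SPRY2 and SPRY4 were not called.

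Of 28 WNT genes compared, 7 were higher in GCT44, against 4.45% of all genes, and 2 in GCT27, near the 5.67% of all genes, with a median of -0.32 that was 0.20 when scaled to the spiked-in controls. WLS, which carries WNT proteins to the cell surface, had 6236 units in GCT44 and 156 in GCT27 (39.9-fold). Its 2 further probe sets pointed the same way, but they were chosen as bright in either line, so this is no independent support. With 3822 units in TCam-2 and 6708 in NT2D1, WLS was another gene for which GCT27 stood apart. The antagonists DKK4 (2660 against 27.0 units, at least 34.8-fold), SFRP1 (3379 against 310, 10.9-fold) and DKK1 (1757 against 197, 8.93-fold) were higher in GCT44. So were the potentiator RSPO3 (at least 6.75-fold), its receptor LGR5 (488 against 84.5, 5.77-fold) and the target SP5 (6.18-fold). The LGR5 difference of -2.53 was -5.62 with the median over its probe sets, and it lost the call at the stricter floor (-0.95), with the floor as a pseudocount (-1.81) and with spiked-in scaling (-1.98). RSPO3 (-1.03) and WNT5B (0.36) lost it at the stricter floor. SFRP2, another antagonist, had 9777 units in GCT27 and 44.5 in GCT44 (at least 128-fold), and WNT5B was at least 4.24-fold higher in GCT27. CTNNB1 (13150 and 18755 units) and AXIN2 (1490 and 924) were not called.

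Among the listed basement membrane and matrix genes, fibronectin had the widest difference. FN1 had 29040 units in GCT44 and 1432 in GCT27 (20.3-fold), or a difference of -1.39 without probe sets that match several transcripts. Of 22 basement membrane and matrix genes 4 were higher in GCT44 and 1 in GCT27, with a median of -0.84 (-0.29 with spiked-in scaling). COL4A6, a collagen IV chain, had 7088 against 481 units (14.8-fold), and LAMB1, the laminin beta-1 chain, 8419 against 2092 (4.02-fold). The protease inhibitor TIMP3 was 4.01-fold higher. With spiked-in scaling LAMB1 (-1.46) and TIMP3 (-1.45) were short of the call. LAMA1, LAMC1, COL4A1 and COL4A2 were higher in GCT44 by 0.95, 0.88, 1.16 and 0.96 on the log2 scale, short of the call. SERPINH1, a collagen chaperone, was higher in GCT27 (5.68-fold).

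The remaining genes among the 15 widest each way are in none of the lists described so far. On the GCT27 side they were the fatty acid carrier FABP5 (22854 against 7.29 units, at least 299-fold), the secreted phosphoprotein SPP1 (22619 against 45.7, at least 296-fold), the integrin ligand EDIL3 (16985 against 42.6, at least 222-fold) and UBE2C, a mitotic ubiquitin-conjugating enzyme (15228 against 68.2, at least 199-fold). POU5F1B (at least 235-fold) and MT1HL1 (at least 201-fold) have near-identical copies, so which gene gave the signal is uncertain. UBE2C was the only called gene of 24 mitosis genes, the other 23 of which had log2 differences from -1.03 (AURKA) to 0.86 (AURKB). Its signal in GCT44 rests on 1 probe set. The EDIL3 difference was 1.66 when its probe sets were summarised by their median. On the GCT44 side were the neuropeptide gene GRP (13190 against 35.2 units, at least 173-fold), the protocadherin PCDH7 (10402 against 70.5, at least 136-fold), the receptor tyrosine kinase ERBB4 (9485 against 4.74, at least 124-fold) and the kinase PRKD1 (8809 against 13.2, at least 115-fold). The iron exporter SLC40A1 (8337 against 69.7 units, at least 109-fold), the adhesion protein FLRT3 (10273 against 109, 94.2-fold), the ion channel TRPA1 (10505 against 133, 79.1-fold) and the collagen gene COL2A1 (5939 against 45.3, at least 77.7-fold) followed. MAGEA6 (28020 against 368 units, 76.1-fold) is a cancer-testis antigen of a family of near-identical genes, and the member behind the signal is uncertain.

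The other lines show which member of the pair stood apart. A line was counted as nearer to GCT27 or to GCT44 when it lay over 0.5 on the log2 scale to that side of the midpoint. For the 791 genes higher in GCT27, NT2D1 was nearer to GCT27 for 417 and nearer to GCT44 for 186, and TCam-2 for 384 and 264. Both lay with GCT27 for 236 genes, where GCT44 was the line set apart, and both with GCT44 for 84, where GCT27 was set apart. For the 620 genes higher in GCT44, both lay with GCT27 for 247, where GCT44 was set apart, and both with GCT44 for 52, where GCT27 was set apart. Named genes of the smallest class were WLS, ID2, MSX2 and TET2, and those for which both other lines lay nearer to GCT44, below GCT27, included EDIL3, NODAL, LEFTY1, TGFA, KDR, GPRC5B and IFITM1. This position is relative, and IFITM1 had 5166 to 7191 units in the lines other than GCT27. By the same 4-fold rule, GCT27 and GCT44 differed in 10.1% of the genes compared, NT2D1 and GCT27 in 5.05%, and TCam-2 and GCT44, the widest of the 6 pairs of lines, in 1505 of 13705 genes. These pairs share arrays and are not independent.

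**Figure D4:**
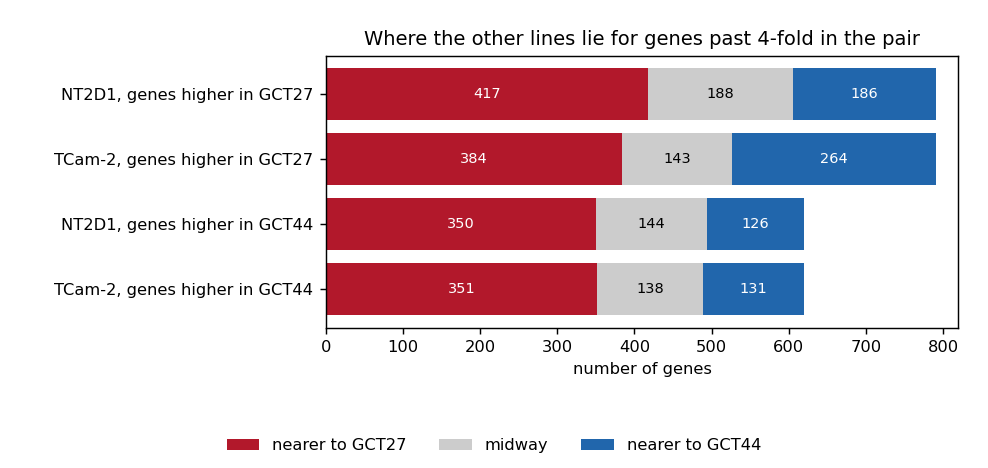
Number of genes past 4-fold in the pair (horizontal axis) for which NT2D1 or TCam-2 was nearer to GCT27, midway, or nearer to GCT44, for 791 genes higher in GCT27 and 620 higher in GCT44. In each bar the part nearer to GCT27 is the longest, from 350 to 417 genes.

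With 1 array per line, probe sets of the same gene are the only repeated measurement, and they cover the probes and not the culture or the RNA. A further probe set was counted as informative when it reached 4 times the floor in GCT27 or GCT44. A called gene reaches this level mainly through the line where it is high, so the direction of its other probe sets is largely fixed by the choice and is not support for the call. Over 3752 genes with at least 2 informative probe sets, the median SD of the log2 difference between them was 0.24, and its 90th percentile 0.70. Of the called genes, 572 higher in GCT27 and 415 higher in GCT44 had no other informative probe set.

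**Figure D5:**
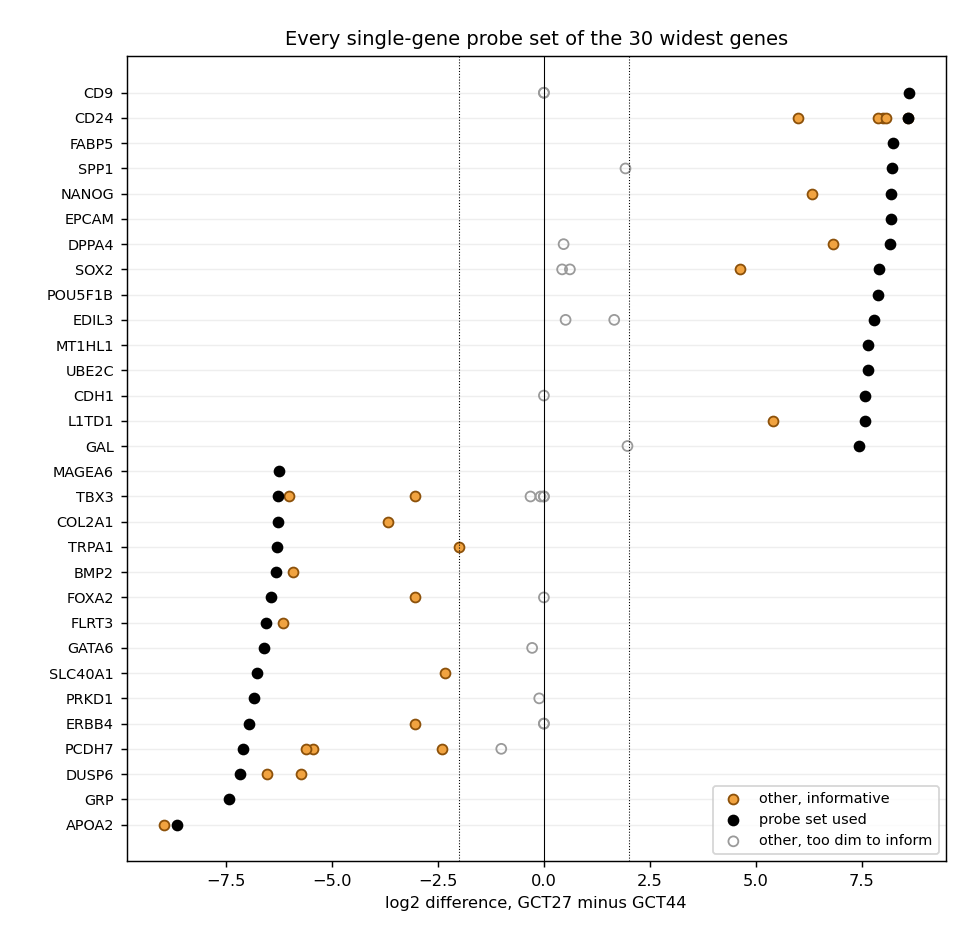
Log2 difference (GCT27 minus GCT44) for every probe set assigned to each of the 30 widest genes alone. Black points are the probe sets used, orange ones other informative probe sets and open ones those too dim to inform; the dim probe sets lie close to 0, and since informative ones were kept through the line where the gene is high, their side of 0 is no independent support.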

How the data were processed

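RNA of 4 human germ cell tumour lines was hybridised to 1 expression array each. The deposited intensity values are on a linear scale, and the trimmed mean of each array was the same after leaving out 2% at each end. The submitters' processing notes name RMA without a version, which usually returns log2 values, so the step that gave this intensity scale by the authors is not given in the sources used here. Of 54675 probe sets, 41097 were assigned to a single gene, 1801 to several and 11777 were not listed. Symbols were updated through Entrez identifiers. Each gene took the probe set with the highest mean log2 value over the 4 arrays. Values were floored at the median of all values, 76.4, before log2, and genes at or above it in GCT27 or GCT44 were compared.

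With 1 array per line there is no estimate of error, no test and no p-value. A gene was called at a log2 difference of 2. Named genes are the 15 widest each way, the lineage markers and every called member of 25 gene lists, with other members given where a role is described. Members and lists were chosen with earlier results of these data known. Promoters came from RefSeq, and 1 of the 8 motifs searched is not reported here. The alternatives were other probe set rules, floors, scalings, thresholds and filters. Python 3.11.15, pandas 2.3.3 and numpy 2.4.6 were used, and the size rule was tested on simulated data. The number of arrays limits the precision. DNA methylation arrays of these lines were not analysed here.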

Additional observations from a re-analysis of the deposited data

How the results depend on the processing

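With 1 array per line, differences between cultures of a line, between RNA extractions and between lines of a tumour type cannot be told apart. Folds against a value under the floor are lower bounds, and intensities close to the floor have no order. No paired analysis was possible because each line has 1 array and the labels give no replicate numbers. 0 genes changed from a call for one line to a call for the other under any alternative. Of 1038 results for 135 named genes under 8 alternatives, 959 kept their direction and their side of the call, and FGFR2 reversed (-1.19 without probe sets that match several transcripts). A gene that had no probe set left, or fell below the floor in both lines, gave no result and is not among the 1038. CD9, FGFR2, GATA4, MMP2, MYCN, SMAD6, TET2, TGFA and WNT5B were left out in this way with the median over probe sets. Without probe sets that match several transcripts, 93 results were the same, 9 calls were lost and 1 reversed, and the other genes gave none. Among genes that gave a result, the floor at the 70th percentile ended 30 calls, the most of the alternatives.

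The counts of genes higher in GCT27 and in GCT44, 791 and 620 as reported, moved by construction with the call and the floor. They were 2175 and 1857 at a log2 difference of 1, 372 and 258 at 3, 383 and 353 with the floor at the 70th percentile, 1479 and 1002 with it at the 25th, and 1436 and 972 with no floor. Scaling to the spiked-in controls gave 1242 and 405, with the median of all genes at 0.51. This scaling adds the same amount, in the direction of GCT27, to every log2 difference before flooring. It also moved the medians of pluripotency associated genes (3.05), endoderm factors (-0.69), basement membrane (-0.29), epithelial adhesion (2.56), mesenchymal transition (0.069), BMP (-0.77), WNT (0.20), the IGF axis (0.99), DNA methylation (0.27), mitosis (0.91), germ cell (0.95), neural (1.02) and housekeeping genes (0.22).

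With the median over a gene's probe sets, medians moved for pluripotency factors (0.65), plasma proteins (-1.87), coagulation (-0.26), WNT (-0.87), ERBB (0.072) and mesenchyme and muscle (-0.55). Without probe sets that match several transcripts, they moved for pluripotency associated genes (1.74), endoderm factors (-2.06), mesendoderm factors (-0.52), coagulation (-1.45), ERBB (0.54), neural (-1.95), mesenchyme and muscle (-0.71) and gut and liver (-1.58). With the floor at the 70th percentile they moved for pluripotency factors (0.78), mesendoderm factors (-3.81), NODAL and activin (-0.78) and germ cell markers (1.80). With the probe set brightest by linear mean, an alternative chosen after seeing the data, endoderm factors had -2.48. Apart from the constant added by the spiked-in scaling, the cause of these shifts in the medians was not tested.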

Other observations

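The called genes of the insulin-like growth factor axis were binding proteins. The ligand IGF2 had no probe set assigned to it alone and was not analysed here. IGFBP2 had 4735 units in GCT27 and 4.51 in GCT44 (at least 62.0-fold higher in GCT27), and IGFBP7 12398 against 647 units (19.2-fold). IGFBP6 had 743 units in GCT44 and 61.7 in GCT27 (at least 9.72-fold higher in GCT44). These were the called members of 14 compared, and the receptor IGF1R was not called (3625 units in GCT27 and 1510 in GCT44). Among 9 ERBB genes, 3 were higher in GCT27 and 1 in GCT44, beside the same shares of all genes. Higher in GCT27 were the ligands TGFA (591 against 39.8 units, at least 7.73-fold) and EGF (496 against 23.6 units, at least 6.49-fold). The feedback inhibitor ERRFI1 (8879 against 1179 units, 7.53-fold) was also higher in GCT27, and the receptor ERBB4 was higher in GCT44. With the floor at the 70th percentile, TGFA (1.23), EGF (0.98) and IGFBP6 (-1.56) were short of the call. The receptors ERBB2 (1148 in GCT27 and 389 in GCT44) and ERBB3 (1223 and 1664) were not called.

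Of 17 genes of the DNA methylation machinery, DNMT3B was the member called higher in GCT27. TET2, which oxidises methylcytosine, was the member called higher in GCT44 (574 against 72.4 units, at least 7.51-fold, and -1.19 with the floor at the 70th percentile). A single call each way in 17 genes is near the 5.67% and 4.45% of all genes. The maintenance enzyme DNMT1 (4335 in GCT27 and 3283 in GCT44) and the de novo enzyme DNMT3A (3991 and 3519) were within 2-fold. TET1 (4951 and 1309) and UHRF1 (2969 and 10173) were short of the call in opposite directions. Of 14 genes for uptake and transport across yolk sac, the endocytic receptor LRP2 (1606 against 136 units, 11.8-fold) and the glucose transporter SLC2A1 (3793 against 563 units, 6.74-fold, or a log2 difference of 1.23 without probe sets that match several transcripts) were higher in GCT27, and the iron exporter SLC40A1 was the member higher in GCT44. These 2 and 1 of 14 stand beside 5.67% and 4.45% of all genes. The remaining called genes of pluripotent cells, all higher in GCT27, were THY1 (2334 against 30.2 units, at least 30.5-fold), the kinase PIM2 (1824 against 128 units, 14.3-fold), GPRC5B (4530 against 763 units, 5.94-fold) and IFITM1 (27884 against 5166 units, 5.40-fold). GPRC5B was 0.65 with the median over its probe sets and 0.56 without those that match several transcripts.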
